A study of Canis lupus familiaris with 29 samples.

Results

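U0126 and PD-98059 are different small molecules that inhibit MEK, and they were compared here in MDCK cells grown flat (2D) in the presence of hepatocyte growth factor (HGF). The comparison rests on the 3 arrays labelled as 2D with HGF and U0126 and the 4 labelled as 2D with HGF and PD-98059, 7 of the 29 Affymetrix canine arrays of the study. Of the 43035 probe sets on each array, 16571 were tested: Affymetrix controls were set aside, and a level of log2 5 or more in at least 3 of the 29 arrays was required. MDCK is an established line of dog kidney epithelial cells, type II in the study's title, and the 2D cultures were on transwell filters, whereas 3D cultures were in collagen. All 7 arrays carry HGF, so neither group is untreated. The study also has 4 arrays with HGF alone and 4 untreated arrays (control) in 2D, and 3 arrays with HGF and U0126 and 3 with HGF and PD-98059 in 3D. No label gives a dose or a time, so it is not known whether the compounds were used at matched doses. The labels do not say whether arrays of a group came from separate cultures, so the p-values set differences against a spread between arrays that may be technical in part.

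HGF binds the receptor tyrosine kinase MET, which signals through RAS and RAF to MEK, and MEK phosphorylates and activates ERK. In MDCK cells HGF is known for inducing scattering and tubule formation. PD-98059 is known to hold MEK in its inactive form, and U0126 is known to block MEK activity, in both cases without competing with ATP. Genes such as DUSP6 and FOS are induced by active ERK, and DUSP6 in turn dephosphorylates ERK.

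The question was which transcripts differed between cells given either MEK inhibitor. Levels are on the log2 scale, and each difference is U0126 minus PD-98059 on that scale ± its limma standard error, followed by the fold for the main genes. A gene is called higher or lower where its Benjamini-Hochberg adjusted p from limma was below 0.05, and dim means a mean level under log2 5, where a fold rests largely on background signal. At this threshold 140 probe sets (0.845% of those tested) were higher with U0126 and 129 (0.778%) were lower, 269 (1.62%) in all. Of these, 27 higher and 32 lower probe sets differed at least 2-fold. The arrays of both groups did not overlap in 263 of the 269, and in 1771 of all 16571. The 95% interval of the difference lay within 2-fold in either direction for 15506 probe sets (93.6%) and within 0.5 on the log2 scale for 9969 (60.2%). The median size of a difference was 0.116 and the median standard error 0.145. The number of higher probe sets was 75 without U0126 replicate 3 and 86 without U0126 replicate 2, and that of lower ones was 70 without U0126 replicate 1, 82 without PD-98059 replicate 4 and 208 without PD-98059 replicate 2. With the spread taken from the 7 compared arrays alone, 32 were higher and 37 lower.

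Each compound was also set against HGF alone. Against those 4 arrays, PD-98059 raised 27.6% of probe sets and lowered 24.9%, and U0126 raised 25.8% and lowered 24.3%. Both comparisons use the same HGF arrays, so their counts are not independent. The Pearson correlation over tested probe sets was 0.987 to 0.993 between the 12 pairs of a U0126 and a PD-98059 array, 0.987 to 0.993 within U0126 and 0.992 to 0.995 within PD-98059. U0126 replicate 2 correlated best with a PD-98059 array (0.993 with replicate 1, against 0.990 with its closest U0126 array). An RNA-quality index, the mean 3′ minus 5′ or middle difference of control probe sets, was 1.31 ± 0.134 (SD, n = 3) with U0126 and 1.36 ± 0.0609 (SD, n = 4) with PD-98059 (exact two-sided permutation p = 0.629, where the smallest possible is 0.0571). It was 0.838 ± 0.0476 (SD, n = 4) with HGF alone. With the index as a covariate, PD-98059 against HGF gave 4824 higher and 4114 lower probe sets, against 4566 and 4124 without it. For U0126 against HGF the counts were 4569 and 4084, against 4269 and 4026 without it. The part of the index in the differences of single genes from HGF was not tested. Of 11 kidney epithelial markers measured, 8 were at log2 5 or more in both groups, among them EPCAM (14.5 in both) and the keratin KRT18 (14.5 with U0126 and 14.7 with PD-98059), while CDH1, PAX8 and PAX2 were below log2 5. None of 8 fibroblast, 7 leukocyte and 6 endothelial markers reached log2 5 in any of the 7 arrays.

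**Figure D1:**
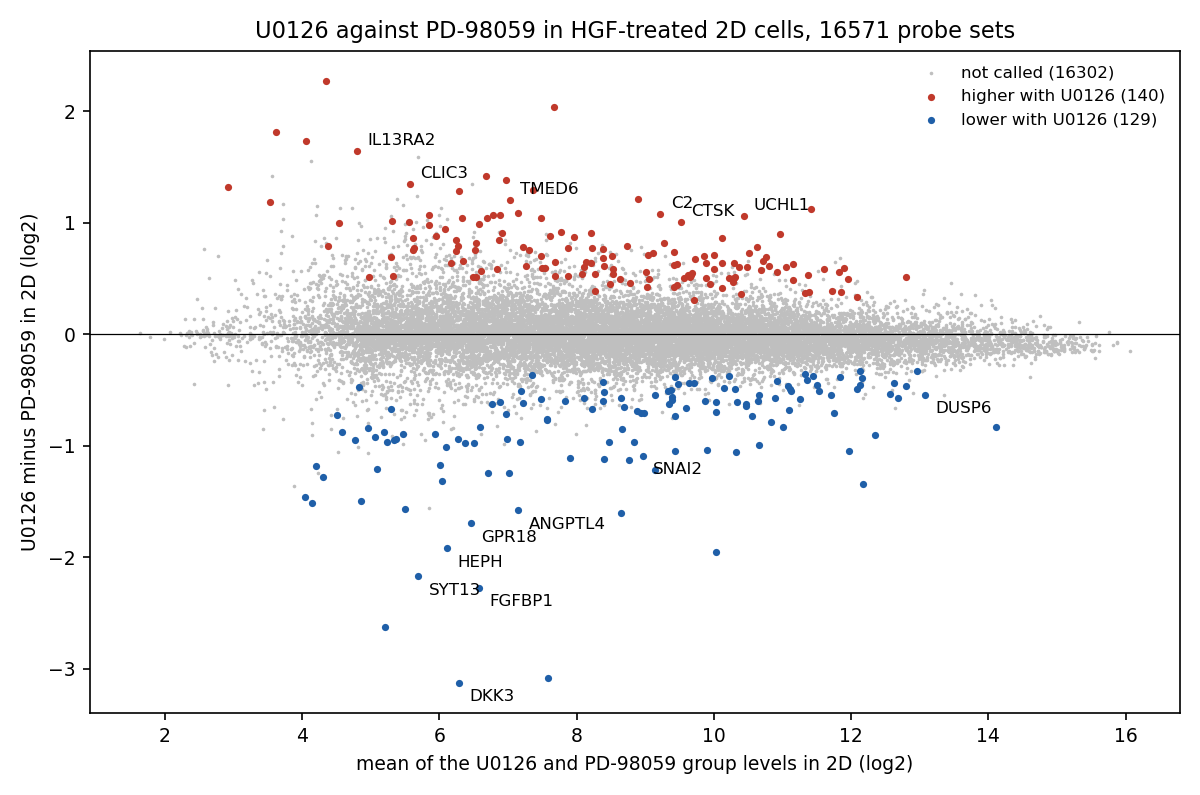
Difference between U0126 and PD-98059 in 2D (log2, vertical axis) against the mean of both groups' levels (log2, horizontal axis), 1 point per tested probe set. Grey points were not called, and the 140 red and 129 blue points were higher and lower with U0126. Most points lie near 0, and DKK3 is the lowest labelled gene at -3.13.

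The genes described first were named for the size of their difference among called genes whose arrays did not overlap, so the separation of their arrays is fixed by that choice and supports nothing. Of the named genes that were lower with U0126, DKK3 had the largest difference, followed by FGFBP1, SYT13, HEPH, GPR18, ANGPTL4 and ACKR3, and 3 called probe sets without a single gene name also had a larger decrease than HEPH. DKK3, a secreted glycoprotein of the Dickkopf family, whose members act on Wnt signalling, was at 5.16, 4.77 and 4.25 in the 3 U0126 arrays and at 7.50, 7.94, 7.91 and 8.06 in the 4 PD-98059 arrays. DKK3 was 8.73-fold lower with U0126 (-3.13 ± 0.25, adjusted p = 2.34e-08), but its mean with U0126 (4.73) was dim, so that the fold rests in part on background signal. Its level was 5.58 with HGF alone and 3.91 in control, so that PD-98059 raised it above HGF alone (2.27 ± 0.23, adjusted p = 4.84e-09) and U0126 lowered it (-0.85 ± 0.25, adjusted p = 0.00576). FGFBP1, a secreted carrier that releases fibroblast growth factors from the matrix, was at 5.98, 6.26 and 4.08 with U0126 and at 8.02, 7.39, 7.46 and 7.97 with PD-98059. U0126 replicate 3 was well below the other two and dim, and FGFBP1 was lower with U0126 (-2.27 ± 0.36, 4.83-fold, adjusted p = 0.000645). HGF had raised FGFBP1 from a dim 3.50 to 9.01.

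ANGPTL4, a secreted inhibitor of lipoprotein lipase, was at 6.13, 6.77 and 6.20 with U0126 and at 7.90, 7.80, 7.78 and 8.28 with PD-98059. The gene was 2.99-fold lower with U0126 (-1.58 ± 0.18, adjusted p = 5.53e-06), as was a second ANGPTL4 probe set (-1.01). HGF alone gave 9.43 and control 5.67. ACKR3, an atypical chemokine receptor that takes up CXCL12, was at 4.89, 4.81 and 4.47 with U0126 and at 6.92, 5.90, 5.86 and 6.47 with PD-98059 (-1.56 ± 0.20, adjusted p = 3.47e-05). The U0126 arrays were all dim and stood near HGF alone (4.53), from which U0126 differed by 0.19 ± 0.20 (adjusted p = 0.47) and PD-98059 by 1.76 ± 0.19 (adjusted p = 1.35e-08). SEMA4B, a transmembrane semaphorin, was lower with U0126 (-1.24 ± 0.26, adjusted p = 0.00922), at 6.40 with U0126, 7.64 with PD-98059, 7.65 with HGF alone and 7.73 in control. SEMA4B lost its call without U0126 replicate 1 or 2 (-1.12 to -1.08, adjusted p 0.0706 to 0.0894).

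SYT13, a synaptotagmin of vesicle trafficking, was at 4.89, 4.68 and 4.26 with U0126 and at 6.58, 6.81, 7.17 and 6.54 with PD-98059. All U0126 arrays were dim (-2.17 ± 0.18, 4.49-fold, adjusted p = 6.04e-08). HGF alone had lowered SYT13 from 7.13 in control to a dim 2.77, and its level with U0126 was between those. HEPH, a copper ferroxidase that helps export iron, was at 5.22, 5.12 and 5.14 with U0126 and at 7.37, 6.63, 6.93 and 7.37 with PD-98059 (-1.92 ± 0.22, 3.78-fold, adjusted p = 5.53e-06). HEPH went from 5.21 in control to 10.43 with HGF alone, so the U0126 arrays were at the control level and the PD-98059 arrays between control and HGF.

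GPR18, a G protein-coupled receptor, was at 5.15, 5.94 and 5.75 with U0126 and at 7.15, 6.91, 7.55 and 7.61 with PD-98059 (-1.69 ± 0.23, 3.23-fold, adjusted p = 6.08e-05). Control stood at 5.69 and HGF alone at a dim 2.38, so GPR18 in U0126 arrays was near control and in PD-98059 arrays above it. CHRNA5, a nicotinic acetylcholine receptor subunit, was dim in all U0126 arrays at 3.54, 4.30 and 4.48, and was 5.67, 5.46, 5.37 and 5.93 with PD-98059 (-1.50 ± 0.26, adjusted p = 0.0015). It reached log2 5 in 5 of the 29 arrays and passed the filter on low levels only through the PD-98059 arrays in 2D, so it had to differ and its values are a description. Of the 269 called probe sets, 4 passed the filter only through these arrays and 2 only through the U0126 arrays in 2D. TSPAN15, a tetraspanin partner of the protease ADAM10, was at 7.32, 7.33 and 7.38 with U0126 and at 8.64, 8.31, 8.32 and 8.56 with PD-98059 (-1.11 ± 0.18, 2.16-fold, adjusted p = 0.000837). TSPAN15 had not passed for HGF against control (8.80 and 8.85), and U0126 alone of the compounds was called below HGF (-1.46 ± 0.18 for U0126, -0.34 ± 0.17 with adjusted p = 0.09 for PD-98059).

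Of the remaining large decreases, RIPPLY1, a transcriptional corepressor known from somite formation, was the most abundant, at 11.61, 11.53 and 11.35 with U0126 and at 12.56, 12.69, 13.20 and 12.92 with PD-98059 (-1.35 ± 0.23, adjusted p = 0.00103). Its control level of 12.72 was close to that with PD-98059, and HGF alone stood at 7.55. ESCO2, an acetyltransferase that establishes sister chromatid cohesion, was at 5.23, 5.50 and 5.40 with U0126 and at 6.62, 6.66, 6.81 and 6.68 with PD-98059 (-1.32 ± 0.25, adjusted p = 0.00298). PDK4, the kinase that inhibits pyruvate dehydrogenase, was lower with U0126 (-1.17 ± 0.16, adjusted p = 7.03e-05), at 5.42 against 6.59.

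ESCO2 stood at 5.66 with HGF alone, which PD-98059 exceeded (1.04 ± 0.23) and from which U0126 differed by -0.28 ± 0.25 (adjusted p = 0.37). GLUL, glutamine synthetase, followed a like order, at 6.09 with U0126, 6.05 with HGF alone and 7.33 with PD-98059 (-1.24 ± 0.28, adjusted p = 0.0169). Its call was lost without PD-98059 replicate 3 or any single U0126 array (-1.26 to -1.21, adjusted p 0.0517 to 0.0772). C10H2orf73, an open reading frame of unstated function, was dim with U0126 at 4.49 and at 5.70 with PD-98059 (-1.21 ± 0.29). It lost its call without PD-98059 replicate 3 or 4 or U0126 replicate 1 or 3 (-1.26 to -0.88, adjusted p 0.0571 to 0.232) and when the filter on low levels was dropped.

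**Figure D2:**
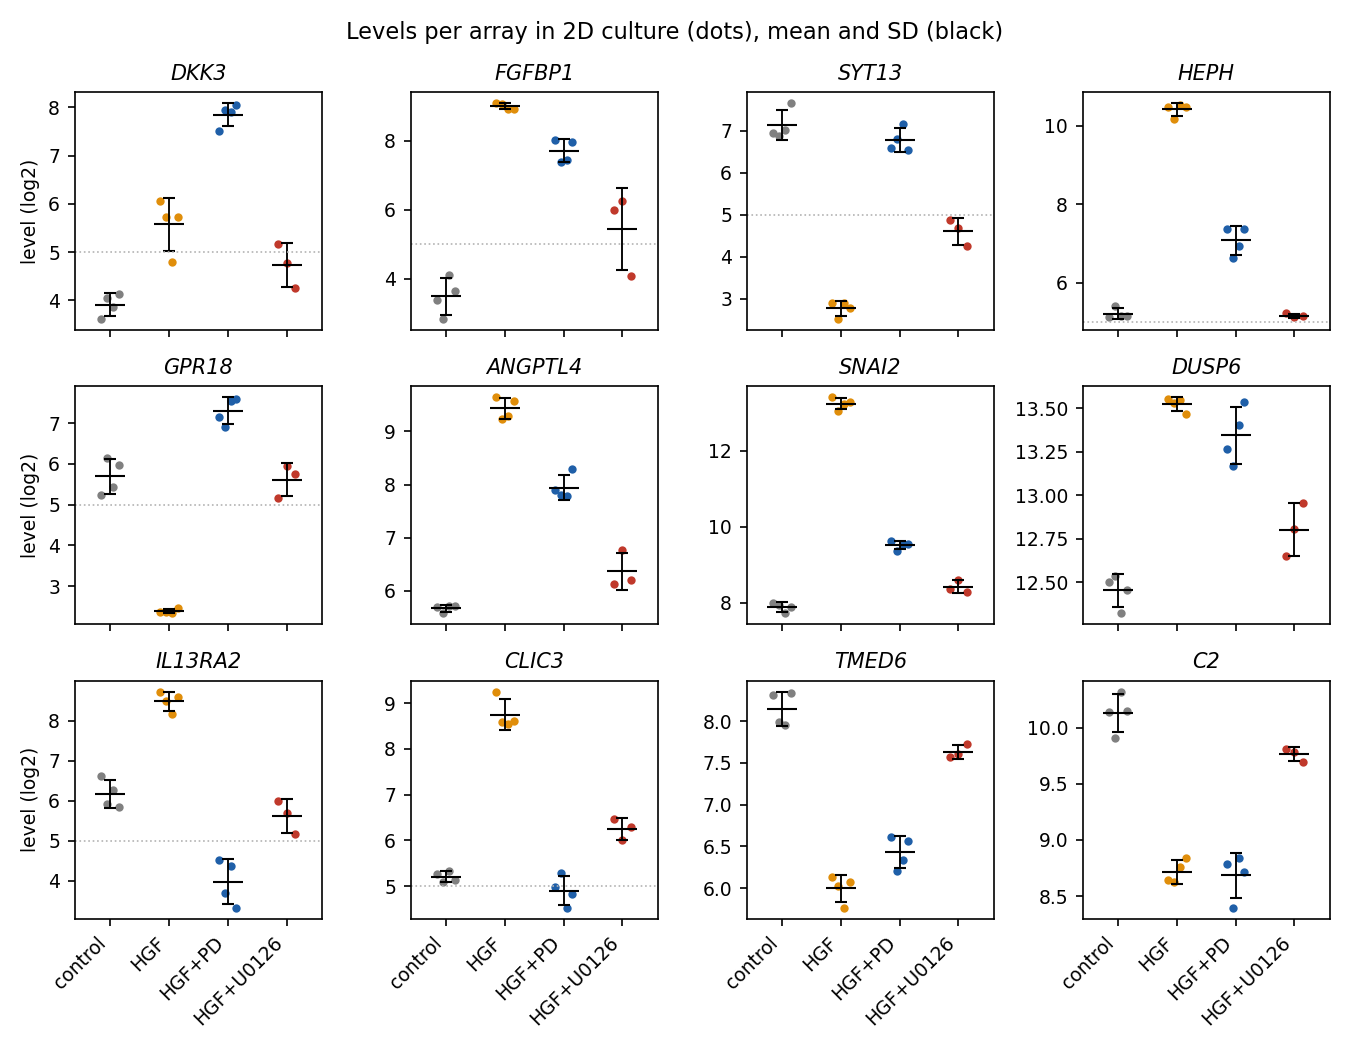
Log2 level (vertical axis, on a scale of its own in each panel) of selected genes in each 2D array with control, HGF, HGF with PD-98059 or HGF with U0126, 1 point per array, with the group mean and SD in black. The dotted line marks log2 5 where the panel reaches it. DKK3 is highest with PD-98059, whereas DUSP6 with PD-98059 lies close to HGF alone.

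Among transcripts that were higher with U0126, the gene with the largest difference under the naming rule was IL13RA2, the decoy receptor of interleukin-13. Larger called increases outside that rule, given after their values were seen, were those of LOC491922, a locus without a gene symbol (2.04 ± 0.20, adjusted p = 9.10e-07, at 8.69 against 6.65), LOC607806 (1.81 ± 0.37) and HOGA1 (1.74 ± 0.18, adjusted p = 1.62e-06), and 1 probe set without a single gene name. LOC607806 and HOGA1 were dim with both compounds. IL13RA2 was at 5.998, 5.70 and 5.18 with U0126 and at 4.51, 3.70, 4.37 and 3.33 with PD-98059. All PD-98059 arrays were dim (1.64 ± 0.22, 3.13-fold, adjusted p = 6.08e-05). HGF alone gave 8.49 and control 6.16, so both inhibitors lowered IL13RA2 below HGF alone (-4.51 ± 0.21 for PD-98059 and -2.87 ± 0.22 for U0126). CLIC3, a chloride intracellular channel protein, was at 6.46, 5.997 and 6.29 with U0126 and at 4.98, 5.28, 4.52 and 4.82 with PD-98059 (1.35 ± 0.18, 2.54-fold, adjusted p = 7.03e-05), against 8.75 with HGF alone and 5.20 in control. The mean of CLIC3 with PD-98059 (4.90) was dim. CTSK, the lysosomal cysteine protease cathepsin K, was at 9.94, 10.10 and 10.04 with U0126 and at 9.04, 8.77, 9.07 and 9.19 with PD-98059 (1.01 ± 0.14, 2.01-fold, adjusted p = 0.000122). HGF had raised CTSK from 9.88 to 11.55, and the U0126 arrays stood near control with the PD-98059 arrays below it.

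C2, the complement protease that joins C4b in the C3 convertase, was at 9.81, 9.79 and 9.69 with U0126 and at 8.79, 8.39, 8.83 and 8.72 with PD-98059 (1.08 ± 0.11, 2.11-fold, adjusted p = 1.62e-06). Of its 3 probe sets 2 were called (1.08 and 1.42), and the third gave 0.0076. Control was at 10.13 and HGF alone at 8.71, so C2 with PD-98059 was at the HGF level (difference -0.03 ± 0.10, adjusted p = 0.83) and with U0126 above it (1.05 ± 0.11, adjusted p = 1.44e-08). TMED6, a p24 family protein of the early secretory pathway, was at 7.57, 7.60 and 7.73 with U0126 and at 6.61, 6.21, 6.33 and 6.56 with PD-98059 (1.20 ± 0.14, adjusted p = 7.08e-06), against 8.15 in control and 5.999 with HGF alone. UCHL1, a ubiquitin hydrolase known mainly from neurons, was at 10.92, 10.93 and 11.05 with U0126 and at 9.99, 9.80, 10.01 and 9.81 with PD-98059 (1.06 ± 0.17, adjusted p = 0.00067). The U0126 arrays of UCHL1 were above both control (10.29) and HGF alone (8.83).

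FILIP1L, a filamin A interacting protein, was at 9.51, 9.74 and 9.27 with U0126 and at 8.42, 8.11, 8.16 and 8.48 with PD-98059 (1.21 ± 0.24, adjusted p = 0.00437). Its other probe set, dim with both compounds, gave 0.11 ± 0.25 (adjusted p = 0.966). Both compounds raised it above HGF alone, where it stood at 5.81, and U0126 did so by 3.70 ± 0.24 against 2.48 ± 0.22 for PD-98059. The nuclear envelope spectrin SYNE1 was at 7.32 with U0126 and 6.25 with PD-98059 (1.07 ± 0.21, adjusted p = 0.00434). The other genes of this group differed by 0.95 to 1.29. They were the RNA helicase DDX39B, the Polycomb protein PCGF1, the kinase LRRK2, FRY, the glypican GPC4, DEPDC7 and the coatomer subunit COPZ2. The second DDX39B probe set differed by 0.72 without being called. GPC4 was at 5.03 with U0126 and a dim 4.04 with PD-98059, and it passed the filter on low levels only through the U0126 arrays in 2D, so its values too are a description.

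Leaving out 1 array ended the call for 5 of these. PCGF1 lost it without U0126 replicate 3 (0.94, adjusted p = 0.0835), DEPDC7 without U0126 replicate 1 or 2 (0.87 to 0.95, adjusted p 0.0701 to 0.097), and GPC4 without U0126 replicate 2 or 3 (0.86 to 0.98, adjusted p 0.0596 to 0.122). FRY lost it without PD-98059 replicate 1 or U0126 replicate 2 or 3 (0.92 to 1.02, adjusted p 0.0811 to 0.127). LRRK2 lost it without PD-98059 replicate 1 or 3 or any single U0126 array (0.94 to 1.13, adjusted p 0.0709 to 0.181). The model takes its spread from all 29 arrays. With the 7 compared arrays alone, 20 of the 52 named genes called in 2D passed and the other 32 did not (adjusted p 0.0533 to 0.276), among them FGFBP1, ACKR3, SEMA4B, PDK4, IL13RA2, SYNE1, DUSP6 and FOS.

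The readouts of the pathway that both compounds inhibit were then compared. Of 35 genes on a list of ERK pathway output, 17 were tested, and 2 were lower and 0 higher with U0126, with a median difference of -0.04 against -0.02 over all 7052 genes tested, of which 65 (0.922%) were lower and 65 higher. FOS, a subunit of the AP-1 transcription factor, was at 12.46, 12.36 and 12.39 with U0126 and at 12.99, 12.86, 12.86 and 13.18 with PD-98059 (-0.57 ± 0.10, 1.49-fold, adjusted p = 0.00196). Both groups were below HGF alone (14.82) and control (14.04), and a second FOS probe set gave -0.51 ± 0.32 (adjusted p = 0.649). DUSP6, the ERK phosphatase, was at 12.65, 12.80 and 12.96 with U0126 and at 13.27, 13.17, 13.41 and 13.54 with PD-98059 (-0.54 ± 0.10, 1.46-fold, adjusted p = 0.00233), and a second probe set gave -0.83.

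DUSP6 stood at 13.53 with HGF alone and 12.45 in control. U0126 lowered it below HGF alone (-0.72, adjusted p = 8.39e-07), while PD-98059 differed from HGF alone by -0.18 (adjusted p = 0.103). The phosphatase DUSP5 was at 6.35, 6.89 and 6.47 with U0126 and at 6.93, 6.77, 7.82 and 7.19 with PD-98059. These arrays overlapped, and the difference of -0.61 ± 0.21 did not pass (adjusted p = 0.195, 95% interval -1.05 to -0.17). Likewise the transcription factor MYC differed by -0.34 ± 0.14 (adjusted p = 0.326), PHLDA1 by 0.42 ± 0.22 (adjusted p = 0.529) and the G1 cyclin CCND1 by 0.06 ± 0.13 (95% interval -0.20 to 0.32). CCND1 was at 10.41 with U0126, 10.35 with PD-98059, 12.64 with HGF alone and 10.39 in control. EGR1 and EPHA2 were dim with both compounds.

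Against HGF alone, 17 of the 17 list members were lower with U0126 and 16 with PD-98059, in comparisons that share the HGF arrays. Of all probe sets, 24.3% were lower with U0126 and 24.9% with PD-98059. HGF had raised 13 of the 17 over control, on the same HGF arrays. Of 11 tested components of the pathway itself, from GRB2 to RPS6KA1, limma called 0 between the compounds, and 1 passed an unadjusted p of 0.05, as did 11.8% of the 7052 genes (5.1% higher and 6.68% lower) and 10.8% of all probe sets. That share is the one to read every unadjusted count against. KLF4, a transcription factor that ERK5 is known to induce, was lower with U0126 (-0.97 ± 0.17, adjusted p = 0.00126), at 8.35 against 9.32, and was the only called gene of the 4 tested on its list. The fit on the 7 arrays alone did not call KLF4 either.

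Of 7 mesenchymal genes tested, 2 were lower and 1 higher with U0126, against 0.922% of all genes in each direction. SNAI2, a repressor of epithelial genes, was at 8.37, 8.60 and 8.29 with U0126 and at 9.61, 9.36, 9.53 and 9.54 with PD-98059 (-1.09 ± 0.13, 2.13-fold, adjusted p = 1.40e-05). HGF had raised SNAI2 from 7.89 to 13.24, and both compounds lowered it from there (-3.73 ± 0.12 for PD-98059 and -4.82 ± 0.13 for U0126). S100A4, a calcium-binding protein linked to motility, was at 9.10, 9.05 and 8.59 with U0126 and at 10.11, 9.76, 9.97 and 10.01 with PD-98059 (-1.05 ± 0.13, 2.07-fold, adjusted p = 2.71e-05). For S100A4 the U0126 arrays were below control (9.56) and the PD-98059 arrays above it.

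FN1, the matrix glycoprotein fibronectin, went the other way on the 1 called probe set of its 4 (0.63 ± 0.14, adjusted p = 0.0137), and the 4 ranged from 0.14 to 1.14. FN1 lost its call without PD-98059 replicate 3 or U0126 replicate 3 (0.51 to 0.57, adjusted p 0.0574 to 0.142). The intermediate filament VIM differed by -0.16 (adjusted p = 0.659). Of 22 junction genes 1 was higher and 0 lower with U0126, the tight junction scaffold TJP3 (0.61 ± 0.13, adjusted p = 0.0133). Among all genes 0.922% were called in each direction. TJP3 was not called without U0126 replicate 2 or 3 (0.50 to 0.59, adjusted p 0.0654 to 0.137). The junction genes had a median difference of 0.19, with 5 past an unadjusted p of 0.05, all higher, against 5.1% of all genes.

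The protease inhibitor SERPINE2 was lower with U0126 (-0.59 ± 0.13, adjusted p = 0.0181) on 1 of its 3 probe sets (the others -0.63 and -0.45). It was the 1 call among 14 matrix proteases and inhibitors tested, against 0.922% lower among all genes. It was at 9.09 with U0126, 9.68 with PD-98059, 12.94 with HGF alone and 7.98 in control. Its call was lost without PD-98059 replicate 1 or 4 or U0126 replicate 1 or 2 (-0.62 to -0.49, adjusted p 0.0501 to 0.142). MMP13, a collagenase, was dim with both compounds, at 4.46, 2.58 and 2.58 with U0126 and at 4.49, 4.44, 4.43 and 4.92 with PD-98059. U0126 replicate 1 overlapped the PD-98059 arrays, and the difference of -1.36 ± 0.37 did not pass (adjusted p = 0.0589). MMP13 stayed uncalled in 12 of 17 alternative fits and was called lower in the others (lowest adjusted p 0.00155). The prostaglandin synthase PTGS2 differed by -0.59 ± 0.25 (adjusted p = 0.356), and U0126 replicate 3, at 7.36, lay below the other U0126 arrays, at 8.80 and 8.50.

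Sterol synthesis showed 5 called genes of 18 tested, all lower with U0126, against 0.922% lower among all genes. DHCR7, the last reductase of cholesterol synthesis, was at 6.42, 6.58 and 6.57 with U0126 and at 7.44, 7.35, 7.20 and 7.86 with PD-98059 (-0.94 ± 0.16, 1.91-fold, adjusted p = 0.000989). INSIG1, which retains the sterol sensor SCAP in the endoplasmic reticulum, was lower with U0126 (-0.69 ± 0.14, adjusted p = 0.00644), while its other probe set, dim with both compounds, gave -0.0074 ± 0.21 (adjusted p = 0.999). FDPS (-0.49 ± 0.10), EBP (-0.38 ± 0.08) and CYP51A1 (-0.33 ± 0.07), enzymes of the same route, had adjusted p = 0.00906, 0.011 and 0.0124. Of the other 13 genes, HMGCS1, the enzyme before HMG-CoA reductase, gave -0.50 ± 0.18 (adjusted p = 0.201) and squalene epoxidase SQLE -0.26 ± 0.09 (adjusted p = 0.194).

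The list median was -0.35, 15 of 18 values were below 0, as were 56.4% of all genes, and 13 passed an unadjusted p of 0.05, all lower, against 6.68% of all genes. The count of 5 fell to 3 without U0126 replicate 1, where FDPS had -0.44 (adjusted p = 0.0791), to 3 when each gene's probe sets were averaged, and to 0 with the 7 arrays alone. Of 10 genes of fatty acid synthesis limma called 0, with a median of -0.10 and 2 past an unadjusted p of 0.05, both lower.

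Of 22 mitotic genes tested, 3 were lower with U0126 on the 1 probe set used per gene, against 0.922% of all genes. Other probe sets of NDC80 (-0.51 ± 0.13) and ANLN (-0.94 ± 0.20) were called as well. That of ANLN was dim with U0126 (4.90), and its brighter probe set, used for the list, went the other way and was not called. AURKA, a spindle pole kinase, was at 7.19 with U0126 and 7.96 with PD-98059 (-0.77 ± 0.15, adjusted p = 0.00419), and its other probe set, dim with both, gave -0.16 ± 0.32 (adjusted p = 0.953). The mitotic cyclin CCNB2 was at 11.21, 11.48 and 11.53 with U0126 and at 11.97, 11.75, 12.24 and 12.47 with PD-98059 (-0.70 ± 0.13, adjusted p = 0.00321). NUSAP1, a spindle microtubule protein, was lower with U0126 (-0.57 ± 0.14, adjusted p = 0.0238) on 1 of 2 probe sets (the other -0.54, adjusted p = 0.230).

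HGF alone stood at 11.42 for CCNB2, which PD-98059 exceeded (0.69 ± 0.12, adjusted p = 3.25e-05) and from which U0126 differed by -0.02 ± 0.13 (adjusted p = 0.94). The mitosis median was -0.44 and 19 of 22 values were below 0, as were 56.4% of all genes. Of the 22, 10 passed an unadjusted p of 0.05, all lower, against 6.68% of all genes. Without U0126 replicate 1 the count was 1, since AURKA (-0.66, adjusted p = 0.0502) and NUSAP1 were not called. NUSAP1 also lost its call without U0126 replicate 2 or PD-98059 replicate 3 or 4 (-0.62 to -0.47 over the 4 fits, adjusted p 0.0518 to 0.196). In RNA from whole cultures, fewer dividing cells and less mRNA per cell cannot be told apart.

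Of 25 genes of DNA replication, limma called 0 on the 1 probe set used per gene. The median was -0.29 and 24 values were below 0, as were 56.4% of all genes. Of the 25, 14 passed an unadjusted p of 0.05, all lower, against 6.68% of all genes. The ribonucleotide reductase subunit RRM1 (-0.35 ± 0.09, adjusted p = 0.0566) and the clamp loader subunit RFC3 (-0.36 ± 0.10, adjusted p = 0.0752) did not pass on it. Another RFC3 probe set, at 8.87 with U0126 and 9.42 with PD-98059, was called lower (-0.55 ± 0.11, adjusted p = 0.00796). The count was 4 with quantile normalization or median centring of each array, 3 with the RNA-quality index as covariate, 2 with array weights, 2 with each gene's probe sets averaged, 3 without PD-98059 replicate 2 and 1 without PD-98059 replicate 1.

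CDKN1A, the cyclin-dependent kinase inhibitor p21, was at 6.59, 6.96 and 6.43 with U0126 and at 5.998, 5.40, 5.43 and 6.43 with PD-98059 (0.85 ± 0.21, adjusted p = 0.0319). The lowest U0126 and highest PD-98059 arrays nearly met, and both groups were far below HGF alone (12.08) and near control (6.11). CDKN1A lost its call without PD-98059 replicate 2 or 3 or U0126 replicate 1 or 2 (0.70 to 0.88, adjusted p 0.0887 to 0.191) and without the filter. The kinase PLK2, like CDKN1A a p53 target, was higher with U0126 (0.86 ± 0.18, adjusted p = 0.00724) but not without U0126 replicate 2 (0.75, adjusted p = 0.0673), and its other probe set gave 0.41 ± 0.24 (adjusted p = 0.586). These were 2 of 12 p53 targets tested, against 0.922% higher among all genes, and 0 were lower. The median of the 12 was 0.05, with 6 values below 0. An unadjusted p of 0.05 was passed by 4 higher and 2 lower genes, against 5.1% and 6.68% of all genes.

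Of 18 inflammatory and interferon response genes, 2 were higher and 0 lower with U0126, against 0.922% of all genes in each direction. The list had no common direction, with a median of -0.004 and 9 of 18 values below 0. An unadjusted p of 0.05 was passed by 4 higher and 3 lower genes, against 5.1% and 6.68% of all genes. OAS1, the interferon-induced sensor of double-stranded RNA, was at 8.30, 8.43 and 8.48 with U0126 and at 7.47, 7.42, 7.88 and 7.32 with PD-98059 (0.88 ± 0.10, 1.84-fold, adjusted p = 6.05e-06), and all 3 of its probe sets were called (0.53 to 0.88). Its mean was 8.40 with U0126, 8.37 in control and 9.25 with HGF alone. BIRC3, an inhibitor of apoptosis in the NF-kB response, was higher by 0.88 ± 0.16 (adjusted p = 0.00214) on 1 of 3 probe sets (the others, both dim, at -0.02 and 0.46). The interferon genes ISG15 and MX1 did not pass, ISG15 at 0.26 ± 0.16 (adjusted p = 0.629) and MX1 at -0.24 ± 0.20 (adjusted p = 0.771).

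Single genes were called on 4 other lists, where 0.922% of all genes were called in each direction. TGFB2, a TGF-beta ligand, was dim with both compounds (4.12 and 2.94) and higher with U0126 (1.19 ± 0.27, adjusted p = 0.0161), but not when any single U0126 array was left out (1.17 to 1.22, adjusted p 0.0568 to 0.0725). The drug efflux pump ABCB1 was higher (0.52 ± 0.12, adjusted p = 0.0215), at 8.13 against 7.61, and lost its call without PD-98059 replicate 1 or 2 or U0126 replicate 2 or 3 (0.43 to 0.51, adjusted p 0.0578 to 0.122). The intraflagellar transport protein WDR19 was lower (-0.62 ± 0.16, adjusted p = 0.0399), 1 of 27 primary cilium genes, and was not called without U0126 replicate 1 or 2 or PD-98059 replicate 1, 3 or 4 (-0.61 to -0.55, adjusted p 0.0846 to 0.213). In 3D WDR19 was called higher with U0126 (0.76 ± 0.17, adjusted p = 0.00376). GABARAPL1, which acts in autophagosome formation, was lower (-0.54 ± 0.11, adjusted p = 0.0086), with its second probe set at -0.65 ± 0.27 (adjusted p = 0.330).

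On the other lists limma called 0 genes between the compounds on the 1 probe set used per gene. Targets of the aryl hydrocarbon receptor, a sensor of planar aromatic compounds, had a median of 0.00 over 7 tested, with 3 past an unadjusted p of 0.05. The largest difference on this list was that of UGT1A6, a glucuronosyltransferase, at 4.24 with U0126 and 3.21 with PD-98059, both dim. Its arrays did not overlap, and the difference of 1.03 ± 0.29 did not pass (adjusted p = 0.0718). CYP1B1, its target oxidase, was at 14.30, 13.77 and 14.47 with U0126 and at 13.75, 13.68, 14.13 and 14.11 with PD-98059, overlapping values that differed by 0.26 ± 0.22 (95% interval -0.18 to 0.71, adjusted p = 0.778). Both were above HGF alone (11.46) and control (12.07). TIPARP, a further target, differed by -0.09 ± 0.41, a wide interval of -0.93 to 0.76, and NQO1, which NRF2 also induces, by 0.30 ± 0.11 (adjusted p = 0.232).

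In 26 genes of hypoxia and glycolysis the median was 0.01, and the 95% interval lay within 2-fold for 25. Of these 26, 3 passed an unadjusted p of 0.05. The unadjusted counts were 2 of 16 for NRF2 targets, 1 of 14 for ATF4 targets, 1 of 17 for chaperones of the endoplasmic reticulum and 1 of 11 for heat shock genes. They were 5 of 13 for actin cytoskeleton and YAP targets, 2 of 23 for oxidative phosphorylation and 3 of 10 for receptor tyrosine kinases and their ligands, where 11.8% of all genes passed. Another probe set of the actin-binding tropomyosin TPM4 was called higher (0.78 ± 0.17, adjusted p = 0.0126). A list without a call does not show that the compounds acted alike on it.

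**Figure D3:**
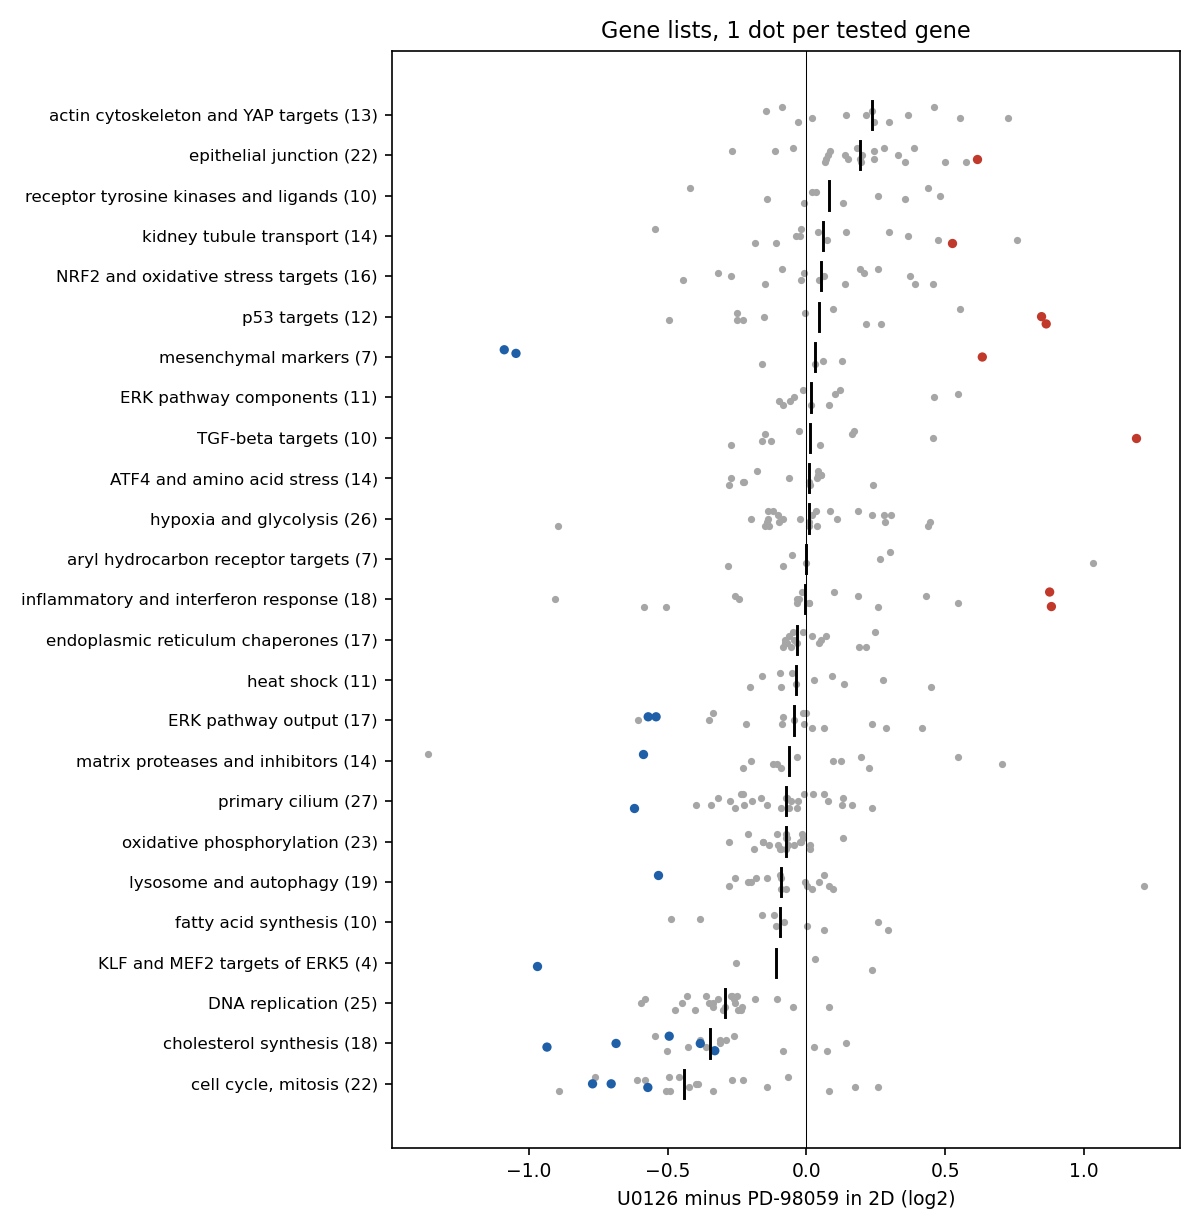
Difference between U0126 and PD-98059 in 2D (log2, horizontal axis) for each tested gene of 25 lists (vertical axis). Grey points were not called, red and blue points were higher and lower with U0126, and the black bar is the list's median. Cholesterol synthesis holds 5 blue points and mitosis 3, and the DNA replication values lie left of 0 except for 1.

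The called probe sets were next set against the HGF response, measured on the 8 arrays of HGF alone and control. None of these enters the difference between the inhibitors. They do enter the filter on low levels and the spread behind the calls, so the shares below are not fully independent. Of all tested probe sets 26.3% rose with HGF and 29.2% fell. Of the 129 that were lower with U0126, 80 (62.0%) rose with HGF and 30 (23.3%) fell, and their median level was 8.22 in control, 9.60 with HGF alone, 9.34 with PD-98059 and 8.53 with U0126. Of the 140 that were higher with U0126, 46 (32.9%) rose with HGF and 71 (50.7%) fell, with median levels of 8.72 in control, 8.69 with HGF alone, 8.08 with PD-98059 and 8.72 with U0126. For both sets the median with U0126 was nearer to control than the median with PD-98059 was. The sets were chosen for their U0126 and PD-98059 levels, so the separation of those medians is fixed by that choice. Not every member followed, since SYT13 and RIPPLY1 were nearer to control with PD-98059. Over all tested probe sets the medians were 8.57 in control, 8.52 with HGF alone, 8.58 with PD-98059 and 8.56 with U0126.

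The same contrast was measured in 3D on 6 other arrays. There U0126 was higher than PD-98059 for 495 probe sets (2.99%) and lower for 1462 (8.82%). The 3D counts of higher and lower probe sets were 274 and 971 without PD-98059 replicate 2, 301 and 609 without PD-98059 replicate 3 and 286 and 780 without U0126 replicate 1, and 730 were lower without U0126 replicate 2. Of the 140 higher in 2D, 58 (41.4%, and 11.7% of those higher in 3D) were higher in 3D, 0 were lower and 82 were not called. Of the 129 lower in 2D, 63 (48.8%, and 4.31% of those lower in 3D) were lower in 3D, 3 were higher, WDR19 among them, and 63 were not called. DKK3 differed by -3.82 ± 0.27 in 3D, HEPH by -2.44 ± 0.23, SNAI2 by -1.78 ± 0.14, FOS by -1.06 ± 0.11 and DUSP6 by -0.74 ± 0.11, each called. For these genes the difference between the cultures was not called. With U0126 in 3D, DKK3 (4.51) and HEPH (4.86) were dim. Of the 18 cholesterol genes 12 were lower with U0126 in 3D, with a median of -0.58.

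A test of the difference itself, 2D minus 3D, called 285 probe sets (1.72%), 187 positive and 98 negative, among them 16 of the 140 and 23 of the 129. The 140 and 129 were chosen for their 2D difference, which enters this test. A share above 1.72% among them therefore follows in part from that choice. The positive count of 187 was 385 without 2D PD-98059 replicate 4 and 78 to 118 without 2D PD-98059 replicate 2, 2D U0126 replicate 2 or 3, 3D PD-98059 replicate 2 or 3, or 3D U0126 replicate 1 or 2. Some genes called in 2D were also called in this test. SYT13 differed by -0.27 ± 0.20 in 3D, where it was dim with both compounds, and the cultures differed (2D minus 3D -1.90 ± 0.27, adjusted p = 0.000168). GPR18 was dim in 3D as well, with a difference of 0.05 there (2D minus 3D -1.74 ± 0.33, adjusted p = 0.0047). RIPPLY1 was well measured in both cultures and differed by -0.06 in 3D, at 11.20 and 11.26 (2D minus 3D -1.29 ± 0.33). ESCO2 (-1.64), CHRNA5 (-2.04, a description only), WDR19 (-1.38, called in opposite directions) and GABARAPL1 (-0.64) had a more negative difference in 2D than in 3D. UCHL1 (0.97) and OAS1 (0.62) had a more positive one.

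Other genes differed between the compounds in 3D and did not pass in 2D. They are the 5 largest called differences between the cultures in each direction under the naming rule, so those calls are fixed by the choice. TIMP1, the metalloproteinase inhibitor, was at 4.96, 5.08 and 4.97 with U0126 and at 3.74, 4.67, 5.09 and 3.67 with PD-98059 in 2D, overlapping and near or below log2 5, whereas HGF alone gave 13.85. In 3D it was lower with U0126 (-2.74 ± 0.32), at a dim 4.48 against 7.22. The cultures differed by 3.44 ± 0.44 (adjusted p = 5.02e-05). The chemokines CXCL8 and CXCL10 were dim in 2D in control, with HGF alone and with both compounds, and higher with U0126 in 3D (2.43 and 2.57, 2D minus 3D -2.46 and -2.60). In 3D CXCL8 was at 10.85 with U0126 and 8.42 with PD-98059, and CXCL10 at 6.12 and a dim 3.55. The collectrin gene CLTRN, an amino acid transporter partner of the kidney tubule, was at 10.27 and 9.79 in 2D and at 7.28 and 4.07 in 3D (2D minus 3D -2.74 ± 0.49, adjusted p = 0.00241). BLNK (-2.51), DHDH (-2.15), PFKFB3 (1.43), IL18BP (1.39), CBR3 (1.23) and OAF (1.18) also had a called difference between the cultures. With PD-98059 in 3D, CLTRN (4.07), BLNK (4.82) and DHDH (4.46) were dim. With the compared arrays alone, DHDH, PFKFB3, CBR3 and OAF did not pass (adjusted p 0.052, 0.0546, 0.0804 and 0.0743). CBR3 lost it without replicate 2 or 3 of either U0126 group or replicate 2 of either PD-98059 group (1.05 to 1.23, adjusted p 0.0609 to 0.105), and IL18BP without 3D PD-98059 replicate 3 or 3D U0126 replicate 1 (1.23 to 1.26, adjusted p 0.0556 to 0.0575). OAF lost it without 3D PD-98059 replicate 2 or 3, 2D PD-98059 replicate 1 or 3, 3D U0126 replicate 1 or 2 or 2D U0126 replicate 3 (1.02 to 1.17, adjusted p 0.0572 to 0.112).

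**Figure D4:**
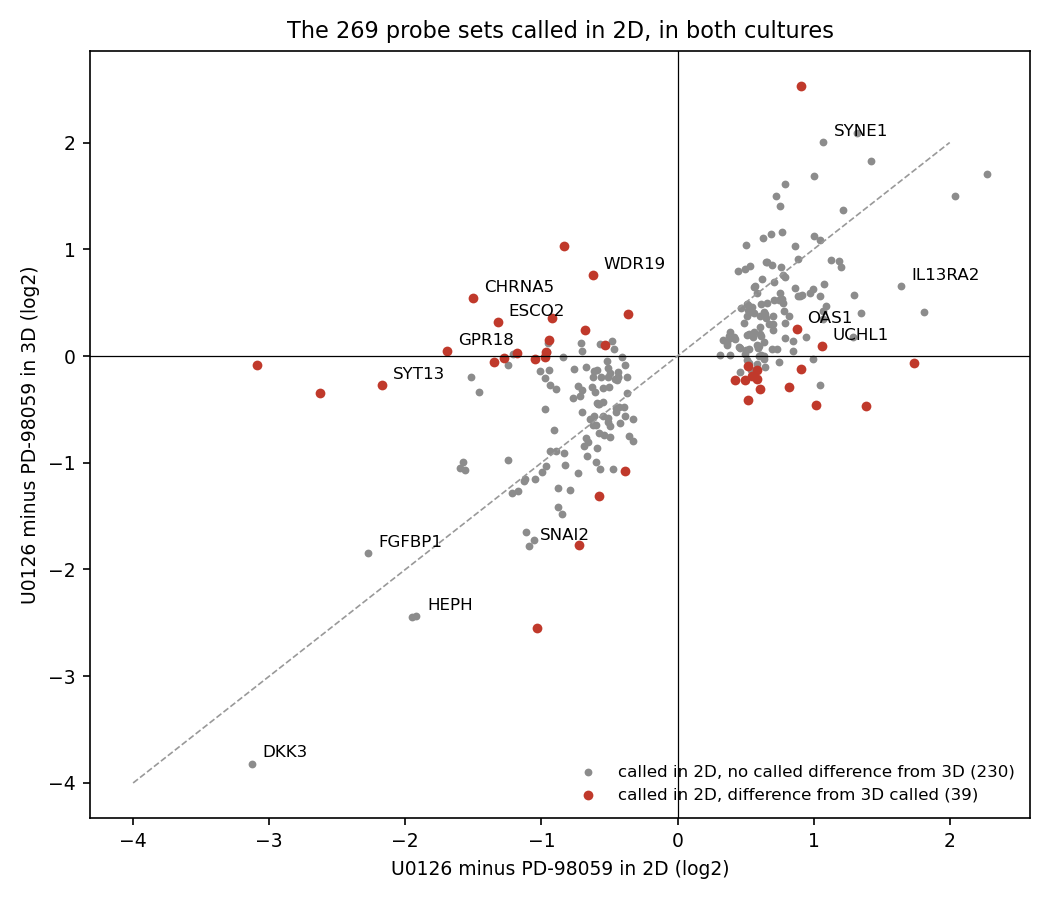
Difference between U0126 and PD-98059 in 3D (log2, vertical axis) against that in 2D (log2, horizontal axis) for the 269 probe sets called in 2D. Red points are the 39 whose 2D and 3D differences were called different, grey points the other 230, and the dashed line marks equal differences. SYT13 and GPR18 lie near 0 in 3D, and DKK3 is far below 0 in both cultures.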

How the data were processed

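Total RNA was copied to cDNA, transcribed in vitro with biotin labels and hybridised to canine arrays, per the labels. Each deposited value is the log2 level of a probe set, made by the authors with MAS5, Affymetrix Expression Console 1.1, GCRMA and Partek 6.6 per the submitters' processing notes, which give no role or order, and were used without further normalization. Of 42924 probe sets that are not controls, 29254 named a single gene in the platform annotation, 439 several and 13231 were not listed. 27680 were matched by gene ID. Affymetrix control probe sets, 111 in all, were left out of tests.

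limma 3.58.1 in R 4.3.3 fitted 8 group means over 29 arrays, with eBayes and a trend on the mean level. P-values are two-sided and Benjamini-Hochberg adjusted over 16571 probe sets within each of 6 comparisons. The fit was checked on simulated data. Gene counts use 1 probe set per gene, that with the highest mean. Named genes had a symbol that is not a LOC number, passed, did not overlap between both groups and had a higher mean of log2 5 or more, and the 15 largest differences in each direction were taken. To these were added the 5 largest in each direction for 2D minus 3D, up to 3 per list and direction, and a fixed set, of which DUSP4, SPRY2 and CYP1A1 were not tested here. Members, lists and rules were chosen with earlier results of these data known. Alternatives were no filter, a filter at log2 6, no trend, the compared groups alone, quantile normalization, median centring, array weights, the RNA-quality index as covariate, a 2-fold limit, probe sets averaged per gene, a replicate block and each array left out.

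The number of arrays limits the precision.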

Additional observations from a re-analysis of the deposited data

Results flagged for a closer look

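A test of the difference between the cultures called 19 of the 74 named genes for U0126 minus PD-98059, 2D minus 3D, and 1.72% of all probe sets. TIMP1 (also in the fixed set), PFKFB3, IL18BP, CBR3, OAF, CLTRN, CXCL10, BLNK, CXCL8 and DHDH were named for passing this test. Their calls were therefore fixed by that choice. The others were named among genes called in 2D, and the 2D difference enters this test. The positive ones were TIMP1 (3.44), PFKFB3 (1.43), IL18BP (1.39), CBR3 (1.23), OAF (1.18), UCHL1 (0.97) and OAS1 (0.62). The negative ones were CLTRN (-2.74), CXCL10 (-2.60), BLNK (-2.51), CXCL8 (-2.46), DHDH (-2.15), CHRNA5 (-2.04, a description only), SYT13 (-1.90), GPR18 (-1.74), ESCO2 (-1.64), WDR19 (-1.38, lower in 2D and higher in 3D), RIPPLY1 (-1.29) and GABARAPL1 (-0.64).

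Each group of 4 arrays of a named gene was checked with Dixon's test, in which the gap of the highest or lowest array to its nearest neighbour is divided by the group's whole range and set against the 95% critical value. That level flags about 1 in 20 groups by chance, and 1 array stood apart in 11 of 222 groups (4.95%). With PD-98059, MMP13 was at 4.92 in replicate 4 against 4.43 to 4.49 in the others. With HGF alone, replicate 1 stood apart for CLIC3 (9.25 against 8.55 to 8.61), DDX39B (8.22 against 7.45 to 7.53), TGFB2 (4.13 against 5.11 to 5.28) and TIPARP (8.42 against 9.37 to 9.56). Also with HGF alone, ACKR3 was at 4.85 in replicate 3 (others 4.41 to 4.45), GPR18 at 2.47 in replicate 4 (2.35 to 2.37) and HEPH at 10.18 in replicate 2 (10.49 to 10.54). In control, replicate 2 stood apart for TGFB2 (3.23 against 2.89 to 2.93), ANGPTL4 (5.57 against 5.70 to 5.71) and HEPH (5.41 against 5.12 to 5.15).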

How the results depend on the processing

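Of the 52 named genes called between the compounds in 2D, all kept their direction under every alternative that gave a value, 17 kept the call in all of them and 35 lost it in some. The 17 were DKK3, SYT13, HEPH, GPR18, ANGPTL4, CHRNA5, RIPPLY1, ESCO2, TSPAN15, SNAI2, S100A4, CLIC3, FILIP1L, TMED6, C2, UCHL1 and CTSK. CHRNA5 passed the filter on low levels only through the PD-98059 arrays in 2D, so its kept call is a description and supports nothing. Counts of probe sets are given as higher and lower. In 2D they were 32 and 37 with the compared arrays alone, 254 and 246 with quantile normalization, 276 and 243 with array weights, 230 and 241 with the index of RNA quality as a covariate and 27 and 32 at 2-fold, and 197 were lower with median centring. In 3D they were 1671 and 3776 with array weights and 129 and 92 at 2-fold, and 971 were lower without the filter and 926 with the compared arrays alone. For 2D minus 3D, array weights gave 1306 and 418, the covariate 411 and 193, no filter 116 higher, a 2-fold limit 40 higher and quantile normalization 176 lower. At 2-fold, PD-98059 against HGF gave 1415 and 1441, U0126 against HGF 1444 and 1414, and HGF against control 1510 and 1708. The causes of these shifts were not tested, except that the compared groups alone leave fewer arrays and that a 2-fold limit is stricter by construction. Leaving out 1 array gave 75 to 167 higher and 70 to 208 lower in 2D, 274 to 529 and 609 to 1614 in 3D, and 78 to 385 and 66 to 128 for 2D minus 3D. For PD-98059 against HGF it gave 4080 to 4662 and 3723 to 4226, for U0126 against HGF 3713 to 4133 and 3587 to 3907, and for HGF against control 3951 to 4281 and 4408 to 4743. The deviations of U0126 and PD-98059 arrays with the same title number from their group means correlated at -0.197, -0.172 and 0.0578. The sample descriptions number the U0126 arrays 1, 3 and 4, and by these numbers the values were -0.197, -0.158 and 0.187. Arrays with different title numbers correlated at -0.240 to 0.325. Neither numbering was therefore taken to pair the arrays. With the replicate number as a block, 133 were higher and 112 lower in 2D (123 and 125 with the numbers of the sample descriptions), and of the named calls WDR19 was lost with both numberings, and CDKN1A, NUSAP1 and, for 2D minus 3D, OAF with the description numbers. Some differences that had not passed were called in an alternative. MMP13 stayed uncalled in 12 of 17 (lowest adjusted p 0.00155), and DUSP5 (lowest 0.0491) and NQO1 (lowest 0.0117) in 16 of 17. Differences that had not passed changed sign for TIPARP with array weights (0.040), MMP1 with the replicate block (0.14), CXCL10 with the block by description number (0.0085), and EPHA2 (-0.038) and EGR1 (0.047) with the covariate. Without single arrays, TIPARP ranged from -0.35 to 0.28 (0.027 and 0.098 without PD-98059 replicates 2 and 3), CCND1 from -0.057 to 0.15 (-0.018 without U0126 replicate 2) and EGR1 from -0.060 to 0.035 (0.0012 without U0126 replicate 1), and the cause was not tested.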

Other observations

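Some called genes outside the rule for named genes are given here, chosen after their values were seen. Type IV collagen, the network-forming collagen of basement membranes, was higher with U0126 on 3 probe sets of COL4A1 (0.71 ± 0.14, 0.75 ± 0.12 and 0.90 ± 0.15, adjusted p = 0.00419, 0.000695 and 0.00095) and 1 of COL4A2 (0.64 ± 0.15, adjusted p = 0.0216). ITGB4, the hemidesmosome integrin, was higher by 0.55 ± 0.12 (adjusted p = 0.014). The complement protease C1R was higher by 0.54 ± 0.13 (adjusted p = 0.0309), at 8.35 with U0126, 7.81 with PD-98059 and 8.30 in control. The cytoskeletal linkers MACF1 (0.51 and 0.64 on its called probe sets) and DST (0.42) were higher too.

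Lower with U0126 were the urate transporter SLC2A9 on its called probe sets (-1.12 ± 0.16 and -0.99 ± 0.16), and S100A2, a calcium-binding protein of basal epithelium (-1.12 ± 0.12 and -0.96 ± 0.12, adjusted p = 1.89e-06 and 2.65e-05). S100A2 stood at 7.84 with U0126, 8.96 with PD-98059 and 14.39 with HGF alone on the first of these. CPT1A, which admits fatty acids to mitochondrial oxidation, was at 10.44 with U0126, 11.23 with PD-98059 and 11.33 with HGF alone (-0.79 ± 0.11, adjusted p = 0.000122). ANLN, a cytokinesis scaffold, was lower on 1 probe set (-0.94 ± 0.20) while its brighter probe set, used for the mitosis list, gave 0.08 ± 0.12.

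A list of motile axoneme genes was added after values had been seen and was not tested as a list. Of its 23 tested genes, 2 were lower with U0126, the dynein assembly factors DNAAF3 (-0.95 ± 0.20, adjusted p = 0.00832) and DAW1 (-0.84 ± 0.20, adjusted p = 0.0276), both dim with U0126. Another probe set of DNAJB13 was lower (-1.18 ± 0.20), dim with both compounds. The list's median was -0.06, and 17 of 23 values were below 0. Among all genes 0.922% were lower, the median was -0.02 and 56.4% of values were below 0.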
